A study of Mus musculus with 7 samples.

Results

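The genes described here encode the enzymes that turn prohormones into hormones and the proteins that bind them: the convertases Pcsk1, Pcsk2 and Furin, the convertase-binding proteins Pcsk1n and Scg5, the carboxypeptidase Cpe and the amidating enzyme Pam. The members were chosen by name, and all 7 were present among the 23465 genes of the count tables. Pancreatic islets of 10-week-old female C57BL/6 mice had been dissociated and profiled as single cells on a droplet platform, with insulin cDNA cut away by Cas9 and the remaining cDNA read in full on a Nanopore instrument. The labels describe 7 samples in 4 groups, and the tables cover the 2 libraries (replicates 1 and 2) of a modified 5′ protocol. In that protocol 10 mM dNTP was added at a pair of steps, one extension ran for 2 h instead of 45 min and another for 3 min instead of 1 min. Every cell shared genotype, sex, age and protocol, so the groups compared are the authors' cell types within these libraries: the non-endocrine endothelial and stellate cells, and PP, delta, alpha and beta cells, which secrete pancreatic polypeptide, somatostatin, glucagon and insulin. Whether each library had its own animals is not stated, so p-values cannot be read as measuring the spread between animals. They measure only how far differences between cell types varied between these 2 libraries, pooled over types, after the shift between libraries was taken out. The spread used for a gene was also drawn toward that of the other genes tested.

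Peptide hormones are made as longer precursors. In the secretory granule, convertases cut the precursor after paired basic residues, Cpe trims the basic residues left at the new end, and Pam converts a terminal glycine into an amide where the hormone carries one. In islets, proinsulin is cut by the products of Pcsk1 and Pcsk2, and proglucagon is cut to glucagon mainly by that of Pcsk2. Furin acts earlier, in the trans-Golgi network, on many membrane and secreted proteins of most cell types. Pcsk1n encodes proSAAS, an inhibitor of the Pcsk1 enzyme, and Scg5 encodes a chaperone that Pcsk2 needs to become active.

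Replicate 1 held 4814 cells with a median of 2110 UMIs (unique molecular identifiers, which count molecules), and replicate 2 held 1093 cells with a median of 9949 UMIs. The libraries shared 5 kept cell barcodes, or 0.457% of those of replicate 2. Levels are given as CPM, a gene's count scaled to the summed UMIs of its cell type in a library, after TMM, a method that sets the bulk of genes equal between sums. Differences are log2 fold changes with their standard error (SE), and a gene is called changed when its adjusted p is under 0.05 in edgeR's quasi-likelihood test over 13265 genes. The authors' clusters had been made from the same genes, so these tests are circular in part. Sums of marker lists are plain CPM, without TMM scaling. The class named delta also carried beta cell markers: the 9 markers summed to 51478 and 44970 CPM in replicates 1 and 2 in the delta class, against 135233 and 111739 CPM in beta cells. It also carried the PP list at 40240 and 57572 CPM, against 296716 and 220141 CPM in PP cells, and the alpha list at 21784 and 28716 CPM, against 343538 and 222894 CPM in alpha cells. The part of these markers in the comparisons of the delta class was not tested.

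Against beta cells, Pcsk1 was lower and Pam higher in every other endocrine type, and Scg5 was higher in PP cells. In PP cells 3 of 7 were called, with Scg5 and Pam higher and Pcsk1 lower, beside 17.3% of all genes called (8.89% higher and 8.43% lower). In the delta class 2 of 7 were called, Pam higher and Pcsk1 lower, beside 13.8% of all genes (8.78% higher and 5.02% lower). In alpha cells 2 of 7 were called, Pam higher and Pcsk1 lower, beside 19.0% of all genes (9.11% higher and 9.91% lower). Because beta cells are the reference in each of these comparisons, the 3 results share the same beta sums. The median log2 change of the 7 genes was 0.08 in PP cells, -0.15 in the delta class and 0.66 in alpha cells relative to beta cells, and over all genes it was -0.03, 0.00 and 0.02.

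**Figure D1:**
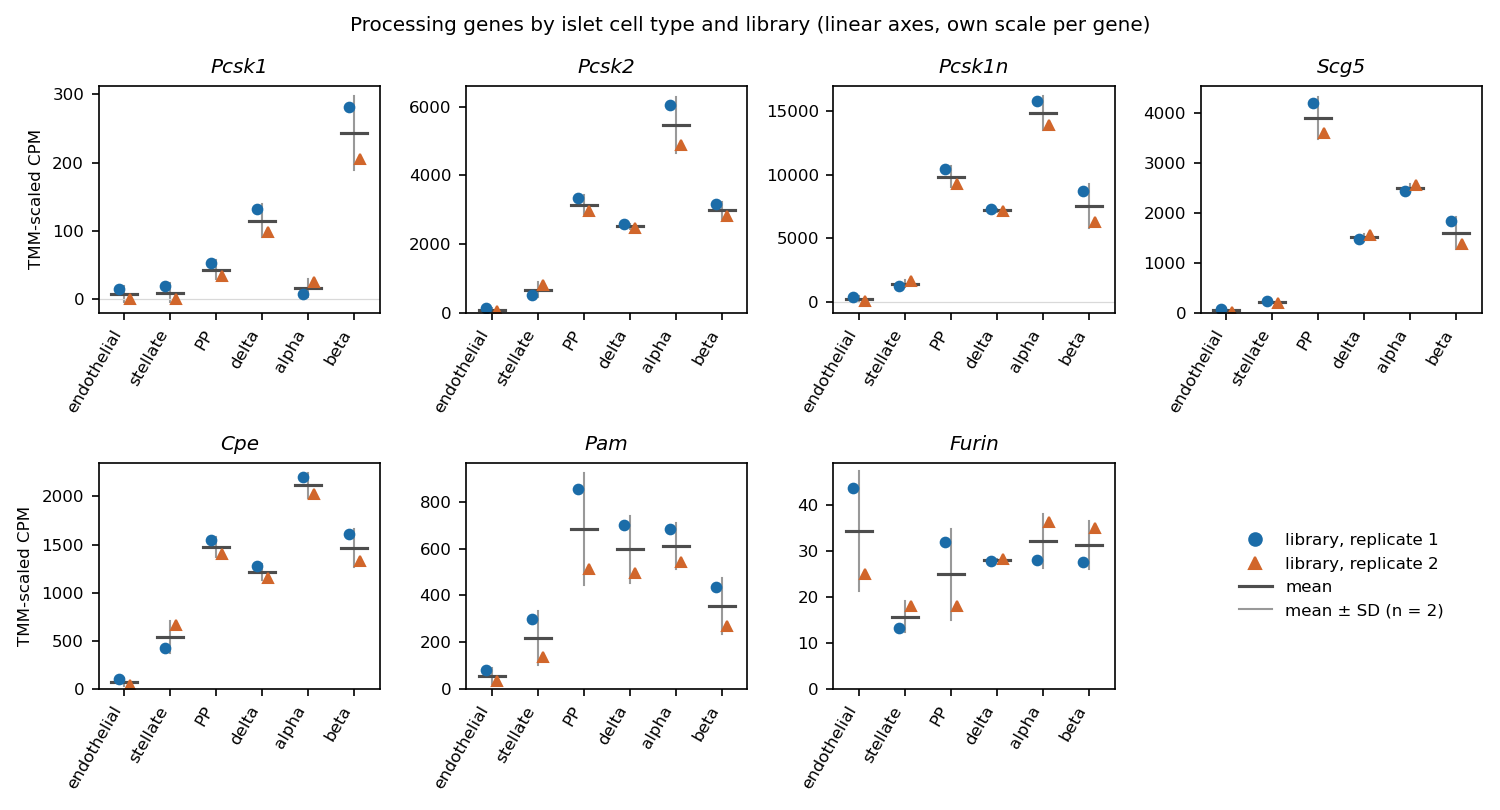
TMM-scaled CPM (linear y axis, one scale per gene) of the 7 genes in 6 cell types (x axis), with circles for replicate 1, triangles for replicate 2, bars for the mean and lines for the mean ± SD (n = 2). Pcsk1 was highest in beta cells at 282 and 206 CPM, Scg5 in PP cells at 4204 and 3603 CPM, and Furin lay between 18.0 and 36.4 CPM in the endocrine types.

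Pcsk1 (ENSMUSG00000021587.5, chr13:75089826-75134861, plus strand, mm10 with GENCODE M21), which cuts proinsulin, had the largest log2 changes among the members between endocrine types. In replicates 1 and 2 it stood at 53.4 and 34.0 CPM in PP cells, 132 and 98.2 CPM in the delta class, 7.85 and 26.2 CPM in alpha cells, and 282 and 206 CPM in beta cells. These levels rest on 40 and 17 UMIs in PP cells, 336 and 424 in the delta class, 12 and 49 in alpha cells and 1664 and 973 in beta cells. The ranges of the 4 types did not overlap. Both libraries gave the order alpha, PP, delta, beta from low to high. Cells not known for the enzyme held 15.9 and 0 CPM (endothelial, from 4 and 0 UMIs) and 19.996 and 0 CPM (stellate, from 3 and 0 UMIs). In replicate 1, PP cells lay above both of these types and alpha cells below both. In replicate 2, a count of 0 allows up to 8.49 plain CPM in endothelial and 30.2 in stellate cells, and PP and alpha cells, at 27.8 and 21.4 plain CPM, lay between those limits. In summed cells, fewer expressing cells and less RNA per cell cannot be told apart.

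Pcsk1 was lower in alpha cells than in beta cells (17.04 ± 13.0 against 244 ± 53.7 CPM, mean ± SD, n = 2; log2 change -3.74 ± 0.35 SE, edgeR adjusted p = 2.3e-09). No background was taken off the alpha level, which was not above that of non-endocrine cells in replicate 1, so the size of this change is not fixed by the data. In PP cells it was 5.47-fold lower than in beta cells (43.7 ± 13.7 CPM; log2 change -2.45 ± 0.36, edgeR adjusted p = 8.6e-06). The delta class held 115 ± 24.2 CPM, 2.11-fold lower than beta cells (log2 change -1.08 ± 0.28, edgeR adjusted p = 0.0074). The log2 change in alpha cells also depends on the library, since it was -2.92 without replicate 1 and -5.00 without replicate 2. The call in the delta class was lost with DESeq2 (adjusted p = 0.62), without the replicate block (0.31) and with sums thinned to equal totals. Another setting reduced types to chosen clusters (own-marker clusters), for delta cells cluster 3 alone, and gave a log2 change of -1.84. For beta cells it left out cluster 5, although beta markers led there too. In replicates 1 and 2 that cluster held 118950 and 99978 CPM of the beta list, beside 10374 and 28291 CPM of the PP list.

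Between the other endocrine types, Pcsk1 was higher in the delta class than in alpha cells (log2 change 2.66 ± 0.36, edgeR adjusted p = 3.1e-06, 1.86 without replicate 1 and 3.91 without replicate 2). It was lower in PP cells than in the delta class (log2 change -1.37 ± 0.37, edgeR adjusted p = 0.018). That last call was lost with own-marker clusters, with a log2 change of -0.66 and an edgeR adjusted p of 0.17, and also without the replicate block (0.27). With sums thinned to equal totals, neither the call in delta against alpha nor that in PP against delta was kept. PP and alpha cells, neighbours in the order, were not told apart in the main test (log2 change 1.29 ± 0.45, edgeR adjusted p = 0.094), and the change was 0.36 without replicate 1 and 2.62 without replicate 2.

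The share of cells with a Pcsk1 UMI showed where the counts end. Cells with at least 1000 UMIs were thinned to 1000, and cells with fewer were left out. In replicate 1 this left out 1 of 283 PP cells, 165 of 965 in the delta class, 59 of 961 alpha and 95 of 2284 beta cells. It also left out 56 of 141 endothelial and 76 of 118 stellate cells. Of the cells kept, 4.26% and 4.88% of PP cells had a Pcsk1 UMI in replicates 1 and 2, 10.9% and 7.55% of the delta class, 0.443% and 2.51% of alpha cells, and 25.4% and 19.5% of beta cells. The same share was 2.35% (2 of 85 cells) and 0 of 26 in endothelial cells, and 4.76% (2 of 42) and 0 of 27 in stellate cells, which are not known for this enzyme. The zeros allow shares of up to 11.5% and 11.1%. The alpha shares lay below both non-endocrine shares in replicate 1 and under both limits in replicate 2. The PP shares lay between the endothelial and stellate shares in replicate 1 and under the limits in replicate 2, while PP cells of replicate 1 exceeded both types in CPM. These few non-endocrine cells therefore do not settle whether the alpha or the PP counts are above background. Beta cells lay above the non-endocrine shares and limits in both libraries. The delta class lay above both shares in replicate 1 and under both limits in replicate 2. Its 10.9% in replicate 1 was within the exact 95% interval of stellate cells, 0.582 to 16.2%. Without thinning, at median depths of 1959 and 8917 UMIs, 1.14% and 16.3% of alpha cells had a UMI, against 47.3% and 80.7% of beta cells at 2224 and 9947 UMIs.

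The promoters of both granule convertases are shown because these genes were called in opposite directions in the delta class against alpha cells. Each line gives bases before the start of transcription, ending for Pcsk1 where the GENCODE gene begins (RefSeq table, GRCm38.p6, the assembly of mm10), chr13:75089607-75089825 for Pcsk1 and chr2:143545883-143546132 for Pcsk2, both on the plus strand, with TGACG or its reverse complement CGTCA in capitals.
Pcsk1 promoter: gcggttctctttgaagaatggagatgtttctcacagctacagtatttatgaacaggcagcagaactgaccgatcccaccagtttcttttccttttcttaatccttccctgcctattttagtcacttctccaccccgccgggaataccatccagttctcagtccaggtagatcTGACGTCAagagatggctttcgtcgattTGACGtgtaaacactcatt
Pcsk2 promoter: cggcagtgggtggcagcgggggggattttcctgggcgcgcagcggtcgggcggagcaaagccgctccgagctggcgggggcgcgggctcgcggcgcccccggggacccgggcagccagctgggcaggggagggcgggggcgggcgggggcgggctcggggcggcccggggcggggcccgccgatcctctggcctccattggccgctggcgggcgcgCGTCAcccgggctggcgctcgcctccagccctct

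The Pcsk1 window held 3 matches to TGACG or CGTCA, of which a pair overlap in the palindrome TGACGTCA, the core of a cyclic AMP response element. The Pcsk2 window held 1 match to TGACG or CGTCA and no palindrome. Among 32851 RefSeq windows of 250 bases, 17.8% held TGACG or CGTCA on either strand and 1.55% held TGACGTCA. For GGGCGG or CCGCCC, the core of a GC box, there were 7 matches before Pcsk2 and 0 before Pcsk1, against 32.7% of windows with a match. These matches describe letters only, and no binding was measured.

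Pcsk2 (ENSMUSG00000027419.9, chr2:143546156-143816285, plus strand), the convertase of the mature granule, had its highest level in alpha cells. In replicates 1 and 2 it stood at 3342 and 2953 CPM in PP cells, 2573 and 2464 CPM in the delta class, 6058 and 4902 CPM in alpha cells, and 3157 and 2811 CPM in beta cells. Both alpha values lay above every value of the other types, and the PP and beta ranges overlapped. Pcsk2 was 2.16-fold lower in the delta class than in alpha cells (2518 ± 76.8 against 5479.8 ± 818 CPM, log2 change -1.11 ± 0.34, edgeR adjusted p = 0.030). This call was lost without TMM scaling (adjusted p = 0.13), without the replicate block (0.25) and with sums thinned to equal totals. Alpha cells did not pass the test against beta cells (log2 change 0.87 ± 0.34, edgeR adjusted p = 0.070), except with own-marker clusters, at 0.90 and an adjusted p of 0.0044.

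In the comparisons among delta, alpha and PP cells, 2 of 7 members were called for delta against alpha, beside 10.6% of all genes (6.98% higher and 3.57% lower). For PP against delta 2 of 7 were called, beside 7.59% of all genes (3.23% higher and 4.36% lower). For PP against alpha 0 of 7 were called by edgeR and 0 by DESeq2, beside 5.01% of all genes (2.83% higher and 2.17% lower), and 2 members, Pcsk1 and Pcsk2, had an unadjusted p under 0.05. Other settings did make calls there. Pcsk1 was called higher in PP cells with no low-count filter (log2 change 1.27, edgeR adjusted p = 0.025) and with own-marker clusters (1.30, adjusted p = 0.0066). Pcsk2 was called lower in PP cells with own-marker clusters (-0.81, edgeR adjusted p = 0.029).

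Ratios of UMIs within a library do not depend on the scaling between cell types. Per 100 UMIs of Pcsk2, replicates 1 and 2 held 1.60 and 1.15 UMIs of Pcsk1 in PP cells, 5.14 and 3.98 in the delta class, 0.130 and 0.535 in alpha cells, and 8.92 and 7.31 in beta cells. The exact 95% intervals of Pcsk1 as a percentage of both, which cover counting error only, were 1.13 to 2.13 and 0.664 to 1.82 in PP cells, 4.39 to 5.43 and 3.48 to 4.21 in the delta class, 0.0669 to 0.226 and 0.394 to 0.703 in alpha cells, and 7.81 to 8.57 and 6.41 to 7.24 in beta cells. The 4 types kept one order in both libraries. Alpha cells of the deeper library held more Pcsk1 than those of the shallower one, and beta cell markers moved with it: in alpha cells the 9 markers summed to 2708 CPM in replicate 1 and 7494 CPM in replicate 2. Their part in that difference was not tested.

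**Figure D2:**
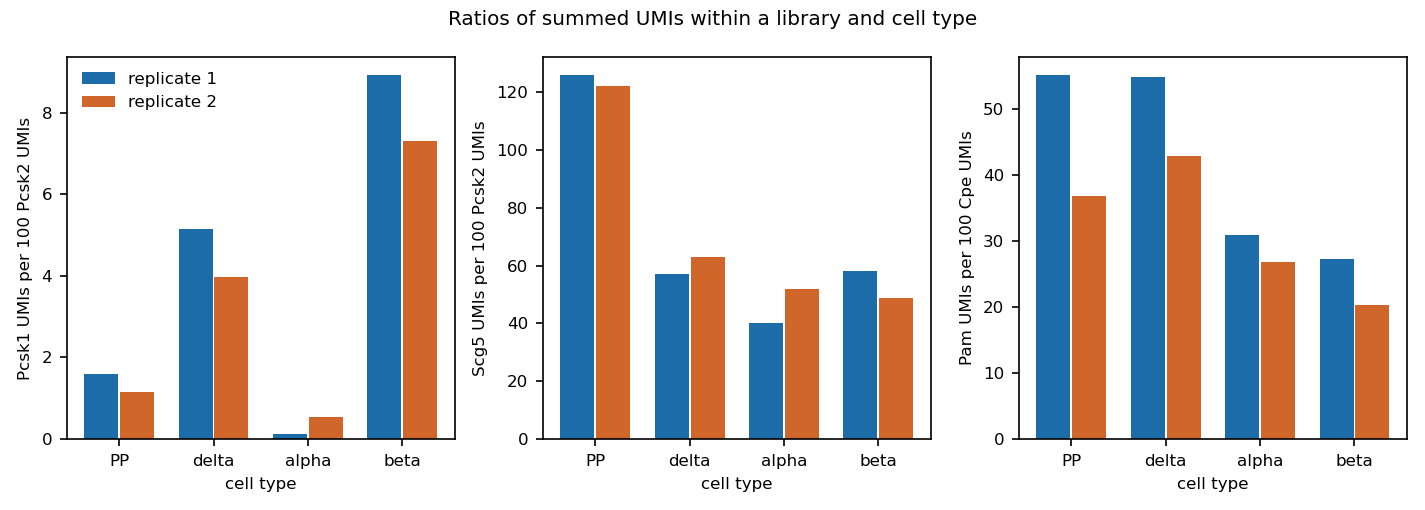
UMIs of one gene per 100 UMIs of another (y axes, linear from 0) in the summed cells of 4 endocrine types (x axis), with one bar per library. Pcsk1 per Pcsk2 was highest in beta cells at 8.92 and 7.31, Scg5 per Pcsk2 was highest in PP cells at 126 and 122, and Pam per Cpe was higher in PP cells and the delta class than in alpha and beta cells.

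Furin (ENSMUSG00000030530.15, chr7:80388585-80405436, minus strand), the convertase of the trans-Golgi network, was called in none of the 7 comparisons. It stood at 32.0 and 18.0 CPM in PP cells, 27.97 and 28.2 CPM in the delta class, 28.1 and 36.4 CPM in alpha cells, and 27.6 and 35.1 CPM in beta cells. Endothelial cells held 43.7 and 25.1 CPM and stellate cells 13.3 and 18.1 CPM, the stellate values from 2 UMIs in each library, under the floor of 3 UMIs. Log2 changes of Furin ran from -0.39 ± 0.40 in non-endocrine against endocrine cells to 0.05 ± 0.25 in alpha against beta cells, with edgeR adjusted p-values of 0.51 and 0.93. A sum of 9 to 166 UMIs per endocrine type and library limits what could be seen.

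**Figure D3:**
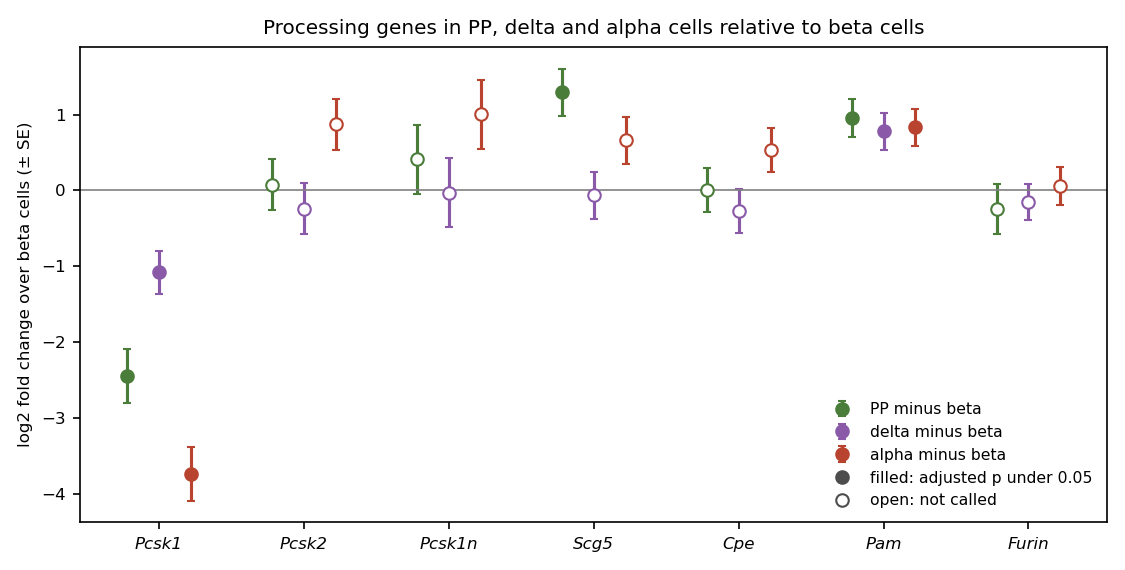
Log2 fold change ± SE (y axis) of the 7 genes (x axis) in PP, delta and alpha cells over beta cells, with filled symbols for an adjusted p under 0.05. Pcsk1 lay below 0 in each type, from -1.08 in the delta class to -3.74 in alpha cells, and Pam lay between 0.78 and 0.95.

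Pcsk1n (ENSMUSG00000039278.10, chrX:7919822-7924410, plus strand), which encodes the Pcsk1 inhibitor proSAAS, had its highest level in alpha cells, where Pcsk1 was lowest. It stood at 10415 and 9238 CPM in PP cells, 7286 and 7105 CPM in the delta class, 15762 and 13876 CPM in alpha cells, and 8738 and 6281 CPM in beta cells. Both alpha values lay above all others. Alpha against beta cells gave a log2 change of 1.00 ± 0.46 that missed the threshold (edgeR adjusted p = 0.14), although it passed with own-marker clusters (1.05, adjusted p = 0.0060). Beside Pcsk2 it stood at 312 and 313 per 100 in PP cells, 283 and 288 in the delta class, 260.2 and 283 in alpha cells, and 277 and 223 in beta cells.

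Scg5 (ENSMUSG00000023236.7, chr2:113776362-113829121, minus strand), the chaperone of Pcsk2, had its highest level in PP cells. By library it stood at 4204 and 3603 CPM in PP cells, 1468 and 1549 CPM in the delta class, 2436 and 2551 CPM in alpha cells, and 1829 and 1374 CPM in beta cells. The PP values lay above all others, the alpha values came next, and the delta and beta ranges overlapped. Scg5 was 2.45-fold higher in PP cells than in beta cells (3904 ± 425 against 1602 ± 322 CPM, log2 change 1.29 ± 0.31, edgeR adjusted p = 0.0039). It was 2.56-fold higher in PP cells than in the delta class (1508 ± 57.6 CPM, log2 change 1.36 ± 0.31, edgeR adjusted p = 0.0058). PP against alpha cells gave 0.63 ± 0.31 and an adjusted p of 0.25. Without the replicate block the calls against beta cells and the delta class were lost (adjusted p = 0.10 and 0.165). With sums thinned to equal totals the call against the delta class was also lost.

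Scg5 was also higher relative to Pcsk2 in PP cells. Per 100 UMIs of Pcsk2, there were 126 and 122 UMIs of Scg5 in PP cells, 57.1 and 62.9 in the delta class, 40.2 and 52.0 in alpha cells, and 57.9 and 48.9 in beta cells. The PP ratio was above that of every other endocrine type in both libraries. The delta values lay above both alpha values, and the beta values overlapped those of both types. These ratios have no test.

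Cpe (ENSMUSG00000037852.8, chr8:64592542-64693054, minus strand), which removes basic residues after the convertases have cut, was called in no pair of endocrine types. By library it stood at 1549 and 1398 CPM in PP cells, 1275 and 1158 CPM in the delta class, 2204 and 2023 CPM in alpha cells, and 1606 and 1326 CPM in beta cells. The largest difference, in the delta class against alpha cells, was -0.80 ± 0.29 (edgeR adjusted p = 0.084). Per 100 UMIs of Pcsk2 it stood at 46.3 and 47.3 in PP cells, 49.6 and 47.0 in the delta class, 36.4 and 41.3 in alpha cells, and 50.9 and 47.2 in beta cells.

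Pam (ENSMUSG00000026335.16, chr1:97795114-98095646, minus strand), which amidates peptides such as pancreatic polypeptide and amylin, was higher in each of the other endocrine types than in beta cells. In replicates 1 and 2 it stood at 853 and 514 CPM in PP cells, 699 and 496 CPM in the delta class, 682 and 542 CPM in alpha cells, and 438 and 268 CPM in beta cells. Replicate 1 was above replicate 2 in every type, and within each library beta cells were the lowest endocrine type. The log2 change over beta cells was 0.95 ± 0.25 in PP cells (edgeR adjusted p = 0.0073), 0.78 ± 0.24 in the delta class (0.028) and 0.83 ± 0.25 in alpha cells (0.015). Per 100 UMIs of Cpe, Pam stood at 55.0 and 36.8 in PP cells, 54.8 and 42.8 in the delta class, 30.9 and 26.8 in alpha cells, and 27.3 and 20.2 in beta cells. These Pam calls were lost without the replicate block (adjusted p = 0.24, 0.515 and 0.38 in PP, delta and alpha cells), and those in PP and alpha cells also without TMM scaling (0.11 and 0.21). With sums thinned to equal totals the Pam calls in the delta class and alpha cells were lost, and with no low-count filter that in the delta class. The exons of Pam overlap a gene on the same strand, B230216N24Rik, with 177 and 247 UMIs of its own.

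Set against endocrine cells, endothelial and stellate cells held less of 6 of the 7 members, beside 30.7% of all genes called (13.6% higher and 17.1% lower). The mean of both types was set apart by a log2 change of -4.59 ± 0.28 for Scg5, -4.17 ± 0.36 for Pcsk1n, -3.91 ± 0.27 for Pcsk2, -3.01 ± 0.54 for Pcsk1, -3.01 ± 0.24 for Cpe and -2.35 ± 0.21 for Pam, with edgeR adjusted p-values from 7.9e-14 to 6.7e-05. The Pcsk1 value rests on 4 and 0 UMIs in endothelial and 3 and 0 in stellate cells. It was -6.05 without replicate 1 and -1.79 without replicate 2, and the Pcsk1n value was -5.03 and -3.86.

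The labels of non-endocrine cells held only in part. Duct markers summed to 4636 and 19311 CPM in the class named endothelial, beside 13946 and 2749 CPM of endothelial markers, so in replicate 2 duct markers were the higher. With own-marker clusters, which leave the duct-marked cells out, the same 6 members were called. That setting left 10 endothelial cells in replicate 2, fewer than the main sums required. Those cells held 0 UMIs of Pcsk1 and from 1 UMI of Scg5 to 5 of Pcsk2 for the other members called. Stellate cells held 513 and 816 CPM of Pcsk2, 427 and 662 CPM of Cpe and 299.9 and 136 CPM of Pam in replicates 1 and 2, and endothelial cells held 123 and 40.2, 99.3 and 42.7, and 79.4 and 32.6 CPM. Hormone messages were present too: the alpha marker list, led by Gcg, summed to 5132 and 1599 CPM in endothelial and to 19428 and 22059 CPM in stellate cells, against 343538 and 222894 CPM in alpha cells. Cpe per 100 Pcsk2 UMIs was 80.6 and 106 in endothelial and 83.1 and 81.1 in stellate cells, above the 36.4 to 50.9 of the endocrine types in both libraries. The part of free RNA in these levels was not tested. Macrophages were too few for a test and held 2 and 3 UMIs of Pcsk1 in 62 and 7 cells.

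The authors' clusters showed how far the types were uniform. Among beta clusters, Pcsk1 ranged from 256 to 383 plain CPM in replicate 1 and from 167 to 322 in replicate 2. In both alpha clusters it was at most 6.91 and 24.5 plain CPM. The delta class was mixed. Its cluster led by delta markers (cluster 3, with 435 and 157 cells) held 72.4 and 63.6 plain CPM, and cluster 12, in which Sst stood beside Gcg, held 40.6 and 36.9. Clusters 8 and 14 held 177 and 182, and 216 and 183 plain CPM.

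Beta markers and Pcsk1 were both higher in clusters 8 and 14 than in clusters 3 and 12, but their order was not the same throughout. The beta list summed to 93639 and 74705 CPM in cluster 8, 75263 and 71337 in cluster 14, 46489 and 24747 in cluster 7, 36175 and 38256 in cluster 3 and 16422 and 25352 in cluster 12. In replicate 1, clusters 7 and 14 thus held more Pcsk1 than cluster 8 with fewer beta markers. Cluster 14, with 20 and 10 cells, also carried the cycling list at 1283 and 1317 CPM, against 12.7 and 8.49 CPM in cluster 3. Cluster 7 split by library, with 381 plain CPM of Pcsk1 in replicate 1 and 95.7 in replicate 2, and its median depth was 929 and 6532 UMIs. The part of beta cell RNA in these levels was not tested.

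Cluster 16, with 7 cells in each library and named delta by the authors, had another pattern of processing genes. Its delta markers summed to 0 and 50.0 CPM, while Prph, Stmn2 and Vip of the neural list stood at 3707, 5383 and 8369 CPM in replicate 1 and 3639, 4579 and 5051 CPM in replicate 2. These cells are neural-like by that list, and the data go against their name. They held 10542 and 6714 plain CPM of Pcsk1n, 921 and 708 of Scg5, and 130 and 28.6 of Pcsk2, from 11 and 8 UMIs. Pcsk1 stood at 47.2 and 50.0 from 4 and 14 UMIs, Cpe at 259.7 and 214 and Pam at 307 and 200.2. The lowest Pcsk2 level among the other endocrine clusters was 2152 plain CPM, in cluster 3 of replicate 2, and no test was made of cluster 16.

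**Figure D4:**
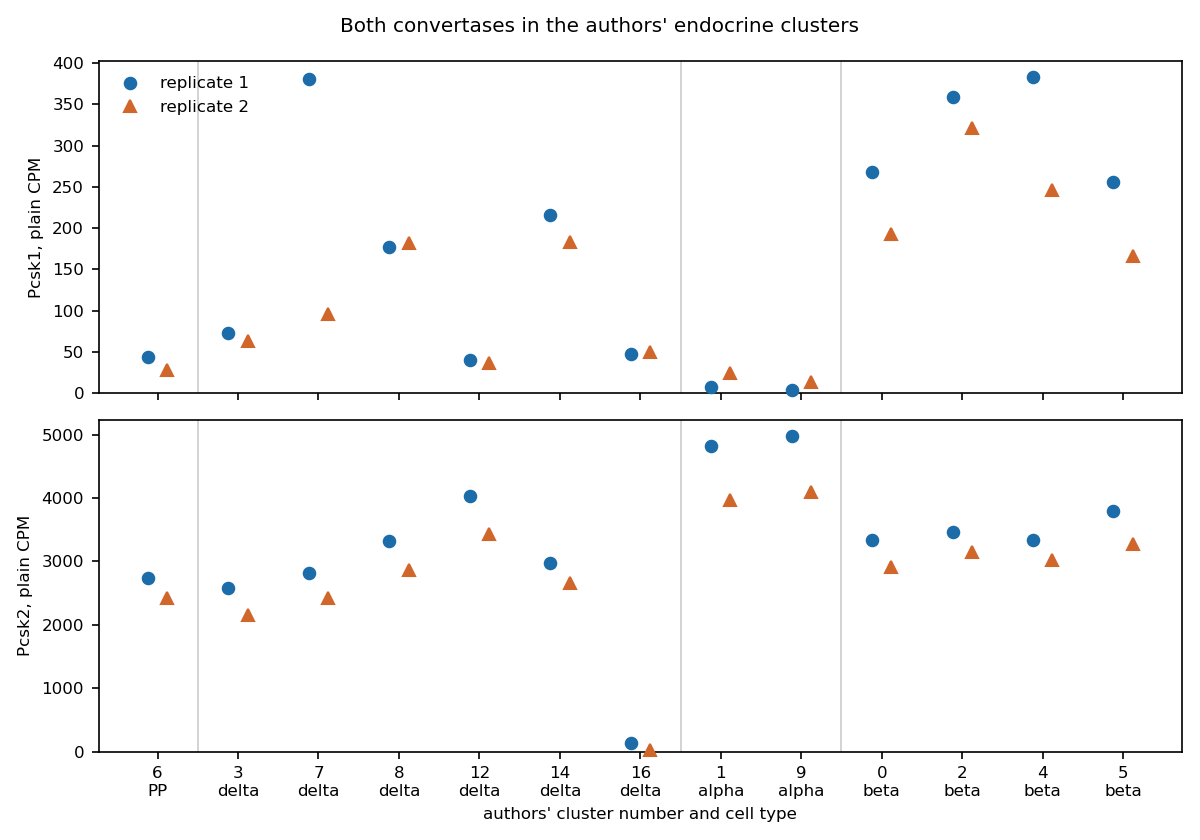
Plain CPM (y axes, linear from 0) of Pcsk1 above and Pcsk2 below in the authors' endocrine clusters (x axis, cluster number and type), with circles for replicate 1 and triangles for replicate 2. Pcsk1 varied within the delta class from 36.9 to 381, and cluster 16 stood apart in Pcsk2 at 130 and 28.6.

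How much of each gene could be followed by transcript differed widely. Of the gene's UMIs in endocrine cells of replicates 1 and 2, an annotated transcript was given to 76.4% and 80.2% for Pcsk1, 99.1% and 99.5% for Pcsk2, 9.63% and 8.49% for Furin, 100.01% in both for Pcsk1n, 99.8% and 99.9% for Scg5, 101% and 99.7% for Cpe, and 7.13% and 8.84% for Pam. Values over 100% occur because the deposited gene and transcript tables hold separate counts. For Pam and Furin, shares therefore describe a small part of the molecules.

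Pcsk1n, Scg5 and Cpe each had at least 99.9% of their assigned UMIs on 1 protein-coding transcript in both libraries, Pcsk1n-201, Scg5-201 and Cpe-201. Pcsk1-201 took 99.1% in both libraries, and the rest, 14 and 10 UMIs, fell on Pcsk1-202, which is annotated as a retained intron. Of the 29 and 31 assigned UMIs of Furin, 9 and 10 were on Furin-205 and 15 and 16 on Furin-207, both annotated as retained introns.

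Pcsk2 had a minor form that varied between types. Pcsk2-201 is the full coding transcript of 12 exons, and Pcsk2-202 is a processed transcript of 2 exons that runs on from exon 2 into intron 2 for 3187 bases, to 143576734. The junction is shown because it is where the 2 forms part, with the bases after exon 2 in capitals: exon 3 (chr2:143687564-143687593) in the first line and intron 2 (chr2:143573548-143573577) in the second, both after chr2:143573518-143573547 on the plus strand.
Pcsk2-201: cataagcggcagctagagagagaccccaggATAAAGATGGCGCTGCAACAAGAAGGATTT
Pcsk2-202: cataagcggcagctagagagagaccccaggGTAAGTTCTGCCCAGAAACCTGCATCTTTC

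The intronic stretch of Pcsk2-202 opens with the splice donor that Pcsk2-201 uses. In replicates 1 and 2, Pcsk2-202 made up 1.08% and 0.545% of assigned Pcsk2 UMIs in PP cells (27 and 8 UMIs), 3.44% and 2.06% in the delta class (222 and 218), 1.42% and 1.01% in alpha cells (130 and 92), and 2.21% and 2.10% in beta cells (409 and 278). The shares of PP and alpha cells lay below those of beta cells and the delta class in both libraries. Exact 95% intervals, for counting error only, were 0.716 to 1.57% and 0.236 to 1.07% in PP cells, against 3.01 to 3.91% and 1.80 to 2.35% in the delta class.

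Under the main filter, which asks for 5% of the gene, Pcsk2-202 was not tested, and edgeR's test of isoform usage called 0 members in any of 4 comparisons at adjusted p (0 of 1 or 2 members tested had an unadjusted p under 0.05). The background was 0.687% of genes called for PP against beta, 0.798% for delta against beta, 0.991% for alpha against beta and 0.965% for non-endocrine against endocrine cells. With the minimum share lowered to 0.5%, chosen after seeing the data, Pcsk2-202 was called lower in PP cells than in beta cells (-1.34 percentage points, edgeR adjusted p = 0.045 over all transcripts) and lower in PP cells than in the delta class (-1.93 points, adjusted p = 0.0011). It was higher in the delta class than in alpha cells by 1.54 points (adjusted p = 0.032). It was not called in alpha against beta cells (-0.94 points, adjusted p = 0.13), delta against beta, PP against alpha or non-endocrine against endocrine cells.

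At that lower filter 0.693% of genes were called for PP against beta, 0.152% for PP against delta, 0.338% for delta against alpha, 1.02% for alpha against beta, 0.767% for delta against beta, 0.0533% for PP against alpha and 0.835% for non-endocrine against endocrine cells. Without the replicate block none of these Pcsk2-202 calls was kept (smallest adjusted p = 0.87). With own-marker clusters only that of PP against beta was kept (adjusted p = 0.020, against 0.052 for PP against delta and 0.39 for delta against alpha). Antisense genes Pcsk2os1 and Pcsk2os2 overlap exons of Pcsk2, with 942 and 877 UMIs and 83 and 93 UMIs of their own, and no exon of either lies in the intron 2 part of Pcsk2-202.

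**Figure D5:**
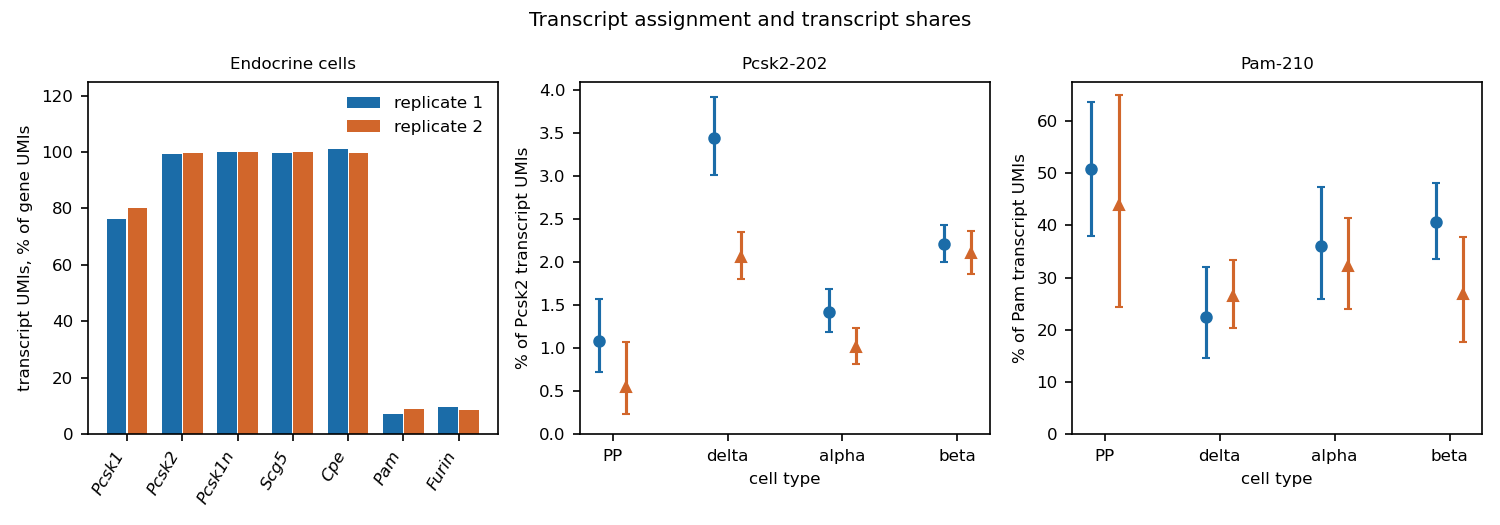
Left, UMIs given to an annotated transcript as a percentage of the gene's UMIs in endocrine cells, 1 bar per library. Middle and right, share of Pcsk2-202 among Pcsk2 and of Pam-210 among Pam transcript UMIs (y axes, percent) by cell type with exact 95% intervals, where Pcsk2-202 ran from 0.545% in PP cells to 3.44% in the delta class and the Pam-210 intervals of PP and beta cells overlapped in both libraries.

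Pam was spread over 14 transcripts with UMIs. The leading one, Pam-210, took 37.1% and 29.2% of assigned UMIs in endocrine cells, followed by Pam-201 with 16.01% and 20.05% and Pam-205 with 14.4% and 10.1%. Pam-210 lacks a coding exon of 318 bases, or 106 codons, that Pam-201 has at chr1:97864203-97864520. The junctions are shown because they tell the forms apart, with the extra exon in capitals, read on the minus strand from chr1:97884126-97884155 into the exon and from the exon into chr1:97853203-97853232.
Pam-201, exon start: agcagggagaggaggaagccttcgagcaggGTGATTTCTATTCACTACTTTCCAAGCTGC
Pam-201, exon end: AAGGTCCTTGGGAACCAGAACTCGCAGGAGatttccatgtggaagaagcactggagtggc
Pam-210: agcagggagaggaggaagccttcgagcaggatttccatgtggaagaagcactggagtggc

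In replicates 1 and 2, Pam-210 made up 50.8% and 44.0% of assigned Pam UMIs in PP cells, 22.4% and 26.5% in the delta class, 36.1% and 32.2% in alpha cells, and 40.6% and 26.8% in beta cells. The counts were 32 and 11, 22 and 50, 30 and 38, and 76 and 22 UMIs. PP cells were highest in both libraries, but their exact intervals, 37.9 to 63.6% and 24.4 to 65.1%, overlapped those of beta cells at 33.5 to 48.1% and 17.6 to 37.8%. In replicate 1 the PP interval lay above that of the delta class, 14.6 to 32.0%, and in replicate 2 it overlapped it, at 20.3 to 33.3%. Pam was not called for isoform usage in PP, delta or alpha against beta cells, with unadjusted p-values of 0.69, 0.78 and 0.76 in edgeR's test.

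The wider machinery of processing was followed through lists of related genes. Of 7 tested carboxypeptidases and aminopeptidases of 10 listed, 1 was higher and 2 lower in PP cells than in beta cells, beside 8.89% and 8.43% of all genes, and 1 was higher and 0 lower in alpha cells, beside 9.11% and 9.91%. Cpn1, a circulating carboxypeptidase of the liver, was higher in PP cells (124 against 58.8 CPM in beta cells, log2 change 1.08 ± 0.24, edgeR adjusted p = 0.0020) and in alpha cells (143 CPM, 1.28 ± 0.22). Cpd, the carboxypeptidase of the trans-Golgi network, and Rnpepl1 were lower in PP cells than in beta cells, with log2 changes of -1.26 ± 0.35 and -1.57 ± 0.36.

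Among 8 other peptide-finishing and granule enzymes, 2 were higher in PP cells and 2 in alpha cells than in beta cells, beside 8.89% and 9.11% of all genes called higher. Qpct, which cyclises glutamine at peptide ends, stood at 29.3 CPM in PP and 11.8 CPM in alpha cells, against 5.20 CPM in beta cells. Ctsb, a lysosomal cathepsin, stood at 448 CPM in PP and 317 CPM in alpha cells, against 171 CPM in beta cells. Ctsh, another cathepsin, was the 1 called higher in the delta class, beside 8.78% of all genes (24.7 against 2.37 CPM in beta cells, log2 change 3.31 ± 0.43).

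The vacuolar proton pump acidifies granules, which the convertases need to work. Of its 16 tested genes, 6 were lower and 0 higher in alpha cells than in beta cells, beside 9.91% and 9.11% of all genes, with a median log2 change of -0.53 beside 0.02 over all genes. Atp6v1e1 fell by 1.35 ± 0.22 log2 units (133 against 340.2 CPM) and Atp6v1d by 0.81 ± 0.22 (105 against 183 CPM). PP cells had 3 pump genes higher than alpha cells (Atp6ap1, Atp6v0b and Atp6v0c) and 0 lower, beside 2.83% and 2.17% of all genes, with a median of 0.34 beside -0.04. In non-endocrine against endocrine cells 12 were lower and 0 higher, beside 17.1% and 13.6% of all genes, with a median of -0.94 beside -0.25. Without TMM scaling the median of all genes itself moved, by -0.41 for alpha against beta cells, -0.38 for PP against beta, -0.36 for PP against delta, 0.37 for delta against alpha and 0.30 for non-endocrine against endocrine cells.

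Many substrates are the hormones by which the types are named, so calls among them follow in part from how the types were defined. Their excess over all genes is therefore not a separate result. The insulin genes in the list were also measured after insulin cDNA had been cut away. Of 14 tested prohormone and granin genes of 17 listed, 4 were higher and 5 lower in PP cells than in beta cells, beside 8.89% and 8.43% of all genes. In the delta class 7 were higher and 3 lower, beside 8.78% and 5.02%, and in alpha cells 4 were higher and 6 lower, beside 9.11% and 9.91%. Npy, a neuropeptide precursor, was higher in the delta class (281 against 12.4 CPM in beta cells, log2 change 4.31 ± 0.35). Scg2 and Chga are named after their values were seen. Scg2, a granin, was lower in alpha cells than in beta cells (1207 against 4278 CPM, log2 change -1.79 ± 0.33, edgeR adjusted p = 0.00015). Vgf, another granule precursor, was higher in alpha cells (35.2 against 4.50 CPM, 2.93 ± 0.35). Chga, the chromogranin, was lower in PP cells (8615 against 19536 CPM in beta cells, -1.16 ± 0.40, edgeR adjusted p = 0.042).

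Over the 12 sums of cell type and library, the genes most like each member were found among 7041 genes by Pearson's r of log2(CPM + 1), as a description, since all sums share libraries and cell types. The sums include endothelial and stellate cells, in which 6 of the 7 members were low, so a high r need not mean likeness among endocrine types. For Pcsk1 the closest genes were Kcnip1 (r = 0.96), Rasgrf1 (0.96) and Defb1 (0.96), of which Kcnip1 stood at 10.3 CPM in PP, 62.2 in delta, 5.29 in alpha and 79.0 in beta cells. Pcsk2 and Cpe shared Isl1 and Ccpg1 among their closest 3, with r from 0.98 to 0.99. Isl1 stood at 288 CPM in PP, 310 in delta, 290 in alpha and 212 in beta cells, whereas Pcsk2 and Cpe were highest in alpha cells. Pcsk1n and Scg5 shared Scgn, at r = 0.99 each. Pam was closest to Tox, Meg3 and Cplx2 (r = 0.97 to 0.98). For Furin the closest was Krr1, with r = 0.90.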

How the data were processed

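Single-cell long-read UMI counts per gene and per transcript were analysed as the authors deposited them, for 2 libraries; no per-sample normalization was applied to these counts. Genome build mm10 and Seurat are named in the submitters' processing notes; the aligner, the counter and its use of strand are not given in the sources used here. Cell types are the authors' deposited annotation, which kept 4814 of 6395 and 1093 of 2124 barcodes. UMIs were summed per library and type, giving 12 sums from the 6 types that had 20 or more cells per library. Members and lists were chosen with earlier results of these data known.

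Sums were tested in R 4.3.3 with edgeR 4.0.16 (TMM, filterByExpr, quasi-likelihood test), with type and library as terms and 5 residual degrees of freedom, with Benjamini-Hochberg adjustment over 13265 genes. The quasi-likelihood test draws each gene's spread toward a trend over all genes, so its p-values rest on more than these degrees of freedom. Each library holds all types, so library pairs the sums and was kept as the replicate block. Isoform usage was tested with diffSpliceDGE for transcripts with at least 10 UMIs and 5% of their gene. All 7 members were named, with up to 4 called genes per list and comparison by adjusted p and the 3 genes of highest Pearson's r for each member. Both tests were checked on simulated data with known changes, for alpha against beta cells. The gene test called 50 of 100 genes changed 2-fold, 87 of 100 changed 4-fold and 5 of 12695 unchanged genes. A missing call therefore does not show that a gene differed by less than 2-fold. The isoform test called 157 of 200 changed genes and 0 others, which does not show how often small shifts in share are found.

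Doublets were not removed in the main analysis: Scrublet (scanpy 1.11.5) marked 0.125% and 1.19% of cells, and an alternative left out the 6% with the highest scores. Intervals are exact Clopper-Pearson at 95%, and they and the floors of 3 counts cover counting error only. Other alternatives were no TMM, no low-count filter, no block, DESeq2 1.42.0, own-marker clusters, the authors' clusters from transcripts, sums thinned to equal totals and each library alone. One list of related genes is not reported here.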

Additional observations from a re-analysis of the deposited data

Results flagged for a closer look

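Barcodes that the authors' cell table leaves out, 1581 in replicate 1 and 1031 in replicate 2, carried UMIs of every member and entered no comparison. Over both libraries they held 1419 UMIs of Pcsk1, 12454 of Pcsk2, 284 of Furin, 21089 of Pcsk1n, 3983 of Scg5, 5187 of Cpe and 2186 of Pam. They were noted because these counts lie above the 3 counts that a count of 0 allows. Pcsk1n stood at 7550 plain CPM in the left-out barcodes of replicate 1 and at 1575 in those of replicate 2, and Scg5 at 1457 and 282. What these barcodes are was not tested.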

How the results depend on the processing

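Pcsk1 kept its call in alpha and in PP against beta cells under each of the 8 alternatives with a test, with adjusted p-values up to 0.0045 and 0.023, and 6 members were called in non-endocrine against endocrine cells under each of them. The number of members called changed elsewhere, against 3 for PP against beta, 0 for PP against alpha and 2 for each other pair. Without the replicate block it was 1 for PP against beta, 0 for delta against beta, 1 for alpha against beta, 1 for delta against alpha and 0 for PP against delta, and 1149 instead of 2297 genes were called for PP against beta. Without TMM it was 1 for alpha against beta, 1 for delta against alpha and 2 for PP against beta. With sums thinned to equal totals it was 1 for alpha against beta, 2 for PP against beta and 0 for delta against beta, delta against alpha and PP against delta. With DESeq2 it was 1 for delta against beta and 1 for PP against delta. With no low-count filter it was 1 for delta against beta, without Pam, 1 for PP against alpha, and 3 for alpha against beta and for delta against alpha, where Pcsk1n was added. With the authors' clusters from transcripts it was 1 for delta against beta and 1 for delta against alpha. With own-marker clusters it was 5 for alpha against beta, 4 for delta against alpha, 2 for PP against alpha and 1 for PP against delta. At 0.5% of the gene, 1 member was called for isoform usage in PP against beta.

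Direction reversed only in log2 changes that were not called. Without TMM, Furin was -0.36 in alpha against beta and 0.17 in delta against alpha, Pcsk2 was -0.33 in PP against beta and -0.046 in PP against delta, Cpe was -0.39 and -0.090 in the same comparisons, and Pam was 0.32 in delta against alpha and -0.20 in PP against delta. With no low-count filter, Furin was -0.0011 in alpha against beta and Cpe -0.063 in PP against beta. With DESeq2, Pcsk1n was 0.0027 in delta against beta. With own-marker clusters, Scg5 was 0.16 in delta against beta, Pam 0.23 in delta against alpha and -0.12 in PP against delta, and Furin 0.0090 in PP against delta. With clusters from transcripts, Scg5 was 0.017 in delta against beta and Pam 0.042 in delta against alpha. With thinned sums, Scg5 was 0.047 in delta against beta, Cpe -0.14 in PP against beta, and Pam -0.18 in PP against alpha and -0.038 in PP against delta. The cause was not tested. A single library leaves no residual degrees of freedom, so it gave values without a test. Low UMI counts limit Furin, Pam transcripts and Pcsk1 outside beta cells and the delta class.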
